A study of Homo sapiens with 24 samples.

Results

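The hypoxia-inducible factors (HIFs) and a set of their known target genes were described across the 24 RNA-Seq libraries of the series. The members were fixed by symbol, as the rows of the count table whose Ensembl identifier carries one of 10 gene symbols, and all 10 were found among the 39321 genes of the table. They are the HIF subunits *EPAS1* (which encodes HIF-2α), *HIF1A* (HIF-1α) and *ARNT* (HIF-1β), and the targets *EGLN3*, *VEGFA*, *ADM*, *ANGPTL4*, *CA9*, *BNIP3* and *NDRG1*. A wider list of 66 HIF subunits, regulators and targets, which holds the 10 members, was compiled by hand from general knowledge. Earlier results of these data were known when the members and the list were chosen, so their shares against all genes are descriptive.

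HIF-1α and HIF-2α are transcription factor subunits that pair with ARNT and bind hypoxia response elements in the DNA. In the presence of oxygen, prolyl hydroxylases of the EGLN family mark both α subunits for recognition by the von Hippel-Lindau protein (VHL), which directs their degradation. Clear cell renal cell carcinoma (ccRCC) usually loses VHL, so that HIF target genes are active without hypoxia, and HIF-2α is regarded as the main driver of this tumour. These levels are of mRNA, and HIF activity is set largely at the protein level, which was not measured here.

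A498 and 786-O are established human ccRCC cell lines, both known for VHL deficiency. The cells of every group were transfected with 20 nM of siRNA, either a non-targeting pool (Cnsi) or a pool against PD-L1 (PD-L1si), and 24 hours later were given IFNγ at 50 ng/mL for 24 hours or left untreated. The 4 groups of each line, which had 3 replicates, are called Cnsi and PD-L1si without IFNγ, and Cnsi IFNγ and PD-L1si IFNγ with it. Silencing was transient and partial, each group was treated as a cell population and not as a clone, and no group lacked siRNA or was exposed to hypoxia. No other siRNA against PD-L1 is described, so loss of PD-L1 cannot be told apart from other effects of the pool. The labels also describe derivatives of both lines that carry a luciferase, without saying whether these were used, and the methods list RNA of 3 groups, without PD-L1si alone, where the labels give 4. The labels call the PD-L1 groups knockout, whereas the methods describe siRNA. No source says that replicates came from separate cultures, so the p-values measure the spread between these samples, which may be technical.

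The lines are named here as the sample labels name them, since the study's figures attach the 2 names the opposite way round. Which naming is right was not tested. The libraries labelled A498 held 19256316 to 27907526 counts and those labelled 786-O 26807875 to 30350461, and according to the methods each line was sequenced on another instrument. In the table, 1475 genes summed to over 1000 counts across the A498-labelled libraries and to 0 across the 12 labelled 786-O. Of these 1.29 percent carry the identifier version of GENCODE 44, against 71.0 percent of the 10433 genes counted in both. *VEGFA*, *EGLN3* and *NDRG1* are among these genes. These 3 members were therefore treated as not measured in the libraries labelled 786-O, which leaves 7 members and 55 genes of the wider list there. The line, the instrument and the difference in gene versions cannot be told apart.

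The cells and treatments were checked against known genes. All 7 renal epithelial and carcinoma markers had counts in the libraries labelled A498, with a summed level of 4602 to 5556 CPM (read counts scaled to a common library size with TMM factors), and 6 of 7 in those labelled 786-O, with 4049 to 6656 CPM and *PAX2* among the genes at 0. Leukocyte markers summed to at most 1.93 CPM, endothelial markers to at most 1.21 CPM and fibroblast markers to at most 3.81 CPM in any library. The leukocyte marker *CD3E* was not in the table. *VWF* (endothelial), *COL1A1* and *DCN* (fibroblast) were at 0 in all libraries labelled 786-O and do not carry the identifier version of GENCODE 44. Whether these genes were measured there was not tested, so the low sums rest on the other markers. With IFNγ, *IRF1*, a transcription factor induced by IFNγ, rose in Cnsi cells by 4.62 on the log2 scale (labelled A498) and 4.77 (labelled 786-O). The level of *CD274*, the PD-L1 gene, fell by 2.81 on the log2 scale with PD-L1si under IFNγ in the libraries labelled A498, to 27.7 ± 0.8 CPM, and by 0.94 in those labelled 786-O, to 31.4 ± 1.2 CPM (SD, n = 3). This check of silencing covers the groups with IFNγ only.

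The first question was which HIF α subunit the cells transcribed. *EPAS1* lies on chromosome 2 of GRCh38 from 46293667 to 46386697, and *HIF1A* on chromosome 14 from 61695513 to 61748259. Levels were compared per kilobase of exon (RPKM), within each library. With the labelled A498 libraries, *EPAS1* stood at 8.27 to 8.86 times the level of *HIF1A* in Cnsi cells. In Cnsi cells labelled 786-O the order was the reverse, with *HIF1A* at 3.40 to 3.53 times the level of *EPAS1*. The 2 subunits thus kept opposite ranks in every one of the 24 libraries, and the ranges of the ratio did not overlap between the lines.

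**Figure D1:**
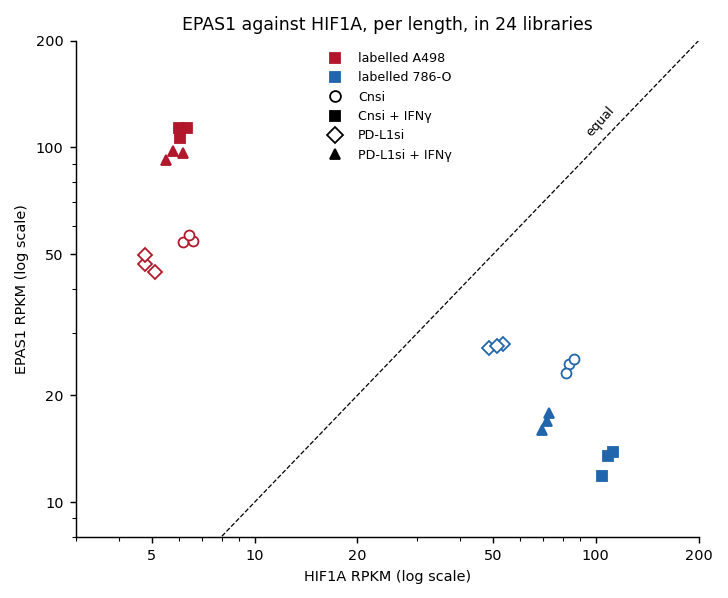
EPAS1 against HIF1A in RPKM, on log axes, in each of the 24 libraries; open symbols are without IFNγ and filled symbols with it. The 12 libraries labelled A498 lie above the line of equal levels and the 12 labelled 786-O below it, and IFNγ moved the 2 sets apart.

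IFNγ shifted this balance further in both lines, toward the subunit that was already higher. In Cnsi IFNγ cells labelled A498 the ratio of *EPAS1* to *HIF1A* was 17.5 to 18.8, and in PD-L1si IFNγ cells 15.6 to 17.0, against 8.71 to 10.5 with PD-L1si alone. Labelled 786-O, the ratio of *HIF1A* to *EPAS1* was 8.05 to 8.82 in Cnsi IFNγ cells, 1.79 to 1.91 with PD-L1si alone and 4.10 to 4.34 with both. *ARNT*, the partner shared by both subunits, was lower per length than the higher α subunit in every group, at 7.20 to 8.47 RPKM (labelled A498) and 3.88 to 4.87 RPKM (labelled 786-O) over the group means.

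Of the targets, *NDRG1*, a stress-response gene, had the highest level per length of the 10 members in Cnsi cells labelled A498, at a mean of 393 RPKM. *ADM* (73.9 RPKM), *VEGFA* (58.7), *EPAS1* (55.1) and *EGLN3* (47.6) followed, and *ANGPTL4* (2.63) and *CA9* (0.457) were the lowest. This order depends on the exon lengths used. Before scaling by length, *VEGFA* (847 CPM, 14431 bases) was above *ADM* (172 CPM, 2325 bases). In Cnsi cells labelled 786-O, *HIF1A* came first at 83.8 RPKM, before *ADM* (64.4), *ANGPTL4* (40.4), *EPAS1* (24.3), *BNIP3* (21.1), *CA9* (10.9) and *ARNT* (4.87). *CA9*, a membrane carbonic anhydrase widely used as a ccRCC marker, was thus the least abundant in the libraries labelled A498, with 15 to 63 counts, and had 206 to 916 counts in those labelled 786-O.

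The promoters of the 4 targets and subunits on which the following comparisons turn are shown with the 5-letter core of the hypoxia response element. Each sequence is the 250 bases before the RefSeq start of the gene (GRCh38, 5′ to 3′ on the strand of the gene, all 4 on the plus strand), and capitals mark ACGTG or GCGTG on either strand. The windows are chr2:46297157-46297406 for *EPAS1*, chr11:10304823-10305072 for *ADM*, chr19:8363905-8364154 for *ANGPTL4* and chr9:35673678-35673927 for *CA9*.
EPAS1: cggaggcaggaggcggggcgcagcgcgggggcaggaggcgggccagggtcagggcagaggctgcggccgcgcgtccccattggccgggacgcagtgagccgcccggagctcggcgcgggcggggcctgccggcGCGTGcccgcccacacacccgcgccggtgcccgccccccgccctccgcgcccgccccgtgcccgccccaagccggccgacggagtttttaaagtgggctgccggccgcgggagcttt
ADM: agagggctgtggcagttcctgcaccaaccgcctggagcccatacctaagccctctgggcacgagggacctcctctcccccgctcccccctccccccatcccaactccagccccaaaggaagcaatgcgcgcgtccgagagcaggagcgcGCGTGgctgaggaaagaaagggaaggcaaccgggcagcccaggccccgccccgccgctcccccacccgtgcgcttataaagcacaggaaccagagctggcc
ANGPTL4: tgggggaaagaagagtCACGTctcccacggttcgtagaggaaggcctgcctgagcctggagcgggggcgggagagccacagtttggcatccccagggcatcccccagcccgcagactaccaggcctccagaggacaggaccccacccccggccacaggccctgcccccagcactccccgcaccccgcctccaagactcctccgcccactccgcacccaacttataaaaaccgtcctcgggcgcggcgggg
CA9: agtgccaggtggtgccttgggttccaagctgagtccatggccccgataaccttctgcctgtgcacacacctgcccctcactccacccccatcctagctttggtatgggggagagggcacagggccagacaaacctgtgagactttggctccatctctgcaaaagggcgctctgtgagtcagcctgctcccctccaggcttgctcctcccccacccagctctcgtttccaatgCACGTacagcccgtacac
The core stood once in each of the 4 windows, with its last letter 113 bases before the start in *EPAS1*, 97 in *ADM*, 230 in *ANGPTL4* and 14 in *CA9*. Of the 8 members with a promoter in the RefSeq table, 6 held the core in a promoter, and *ARNT* and *EGLN3* did not. *HIF1A* has a promoter with the core and another without it. Of all 35116 promoters of the same length 43.2 percent held the core, so that these letters are common. That share is per promoter, whereas the members were counted per gene. The IFNγ-activated site TTCNNNGAA was in 0 of the 8 members and in 6.57 percent of all promoters. A match is a description of letters and no evidence of binding.

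The second question was what IFNγ did to these genes with PD-L1 expression intact (Cnsi IFNγ against Cnsi). Genes were called in edgeR's quasi-likelihood test over all genes of a line where the p-value after Benjamini-Hochberg adjustment was below 0.05 and the absolute log2 fold change exceeded 0.5. Among the libraries labelled A498, 3 of the 10 members rose (*EPAS1*, *ADM* and *ANGPTL4*) and 0 fell, against 18.2 percent of all genes higher and 18.5 percent lower. In those labelled 786-O, 0 of 7 rose and 3 fell (*EPAS1*, *ANGPTL4* and *CA9*), against 11.1 percent higher and 7.39 percent lower. *EPAS1* and *ANGPTL4* were called in both lines, in opposite directions.

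*EPAS1* was at 395, 398 and 413 CPM in Cnsi cells labelled A498 and at 826, 774 and 825 CPM with IFNγ. Labelled 786-O it was at 179, 168 and 185 CPM and, with IFNγ, at 86.3, 101 and 98.2 CPM. The groups did not overlap in either line, and the change was up in the first and down in the second. It rose 2.01-fold (log2 1.01 ± 0.04 SE, adjusted p = 2.92e-21) labelled A498 and fell by 0.90 on the log2 scale (± 0.06 SE, adjusted p = 8.58e-13) in those labelled 786-O. The difference between the lines was -1.91 on the log2 scale (95% interval -2.05 to -1.77, adjusted p = 1.09e-23), in one model of all 24 libraries and labelled 786-O minus labelled A498.

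*HIF1A* was at 31.7, 34.0 and 32.97 CPM in Cnsi cells labelled A498 and at 32.7, 31.2 and 31.0 CPM with IFNγ, so that these groups overlapped. Its log2 fold change there was -0.06 (95% interval -0.17 to 0.05, adjusted p = 0.408). Labelled 786-O it was at 430, 420 and 444 CPM without and at 537, 578 and 559 CPM with IFNγ, a log2 fold change of 0.37 ± 0.05 (SE, adjusted p = 3.85e-07) that was under the fold threshold. *ARNT* was lower with IFNγ in both lines by less than the fold threshold, at -0.24 ± 0.05 and -0.33 ± 0.06 (log2, SE).

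The gene *HIF1A-AS1* lies on the opposite strand of *HIF1A* and took 8.18 to 12.05 percent as many counts as *HIF1A* in each library labelled A498 and 9.05 to 10.8 percent in each labelled 786-O. The libraries were made with a stranded kit, known to give reads of the reverse strand, and the methods state strand-specific counting with the forward setting. Whether reads of one transcript were counted on both genes was not tested. For *VEGFA*, an opposite-strand gene without a symbol had 1041 to 2221 counts in the libraries labelled A498, 6.52 to 9.70 percent of those of *VEGFA*, and 641 to 1214 in those labelled 786-O, where *VEGFA* was at 0. For *EGLN3*, the opposite-strand gene *EGLN3-AS1* had at most 3 counts in any library.

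*ADM* encodes adrenomedullin, a vasodilator peptide. It was at 164, 178 and 173 CPM in Cnsi cells labelled A498 and at 487, 452 and 490 CPM with IFNγ, a 2.77-fold rise (log2 1.47 ± 0.04 SE, adjusted p = 6.67e-26) without overlap of the groups. Labelled 786-O it was at 152, 144 and 154 CPM and, with IFNγ, at 119, 139 and 142 CPM, and its log2 fold change was -0.17 ± 0.06 (SE, adjusted p = 0.018), under the fold threshold. The lines differed by -1.64 on the log2 scale (95% interval -1.78 to -1.51, adjusted p = 1.24e-21).

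*ANGPTL4*, a secreted inhibitor of lipoprotein lipase, was at 6.02, 6.88 and 6.66 CPM in Cnsi cells labelled A498 and at 21.9, 16.6 and 19.2 CPM with IFNγ. Labelled 786-O it was at 99.2, 99.2 and 101 CPM and fell to 39.9, 57.6 and 56.0 CPM with IFNγ. The groups did not overlap in either line, and the first replicate of Cnsi IFNγ labelled 786-O was the lowest of its group for *ANGPTL4*, *EPAS1* and *ADM* alike. The rise was 2.94-fold (log2 1.56 ± 0.10 SE, adjusted p = 4.22e-15), and the fall was 1.95-fold (log2 -0.97 ± 0.10 SE, adjusted p = 3.90e-06). The difference between the lines was -2.53 (95% interval -2.88 to -2.18, adjusted p = 9.59e-11). In all, 4 of 7 members had a called difference between the lines in this response (*EPAS1*, *ADM*, *ANGPTL4* and *CA9*), against 28.4 percent of all genes, and 6 of 7 passed at the adjusted p-value alone, against 46.8 percent.

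*CA9* was at 16.9, 17.4 and 18.2 CPM in Cnsi cells labelled 786-O and at 8.99, 7.69 and 8.12 CPM with IFNγ. It was lower in each of the 3 libraries with IFNγ, by 2.11-fold (log2 -1.08 ± 0.08 SE, adjusted p = 3.96e-11). In the libraries labelled A498 it lay between 0.678 and 0.969 CPM in all 6 Cnsi libraries, and its log2 fold change of 0.22 had a 95% interval from -0.31 to 0.75 (adjusted p = 0.492). At this depth a change of *CA9* smaller than that interval was not detectable in these libraries. The gene overlaps *ARHGEF39* on the opposite strand, which was well above *CA9* in the libraries labelled A498, at 19.0 to 19.3 CPM with Cnsi and 12.3 to 13.6 CPM with Cnsi IFNγ. Labelled 786-O it was at 66.9 to 74.7 CPM and 60.1 to 68.0 CPM. What part of the *CA9* counts came from that overlap was not tested.

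The remaining targets, which were not called, were the hydroxylase *EGLN3*, the angiogenic ligand *VEGFA*, *NDRG1* and the mitophagy receptor *BNIP3*. Labelled A498, *EGLN3* was at 358, 355 and 339 CPM and then at 488, 497.7 and 483 CPM with IFNγ (log2 fold change 0.48 ± 0.04 SE, adjusted p = 3.82e-13). *VEGFA* was at 802, 847 and 891 CPM and then at 1140, 1006 and 1113 CPM (0.36 ± 0.04), and *NDRG1* at 4739, 4711 and 4699 CPM and then at 5545, 5411 and 5581 CPM (0.22 ± 0.04). All 3 were higher with IFNγ in every library, without overlap. The share of all genes with separate groups was not computed, and 61.3 percent of all genes passed at the adjusted p-value alone in this comparison. The call of *EGLN3* depended on single libraries, since its log2 fold change was 0.50 and passed without replicate 3 of Cnsi IFNγ or without any 1 of the PD-L1si replicates. *BNIP3* changed by 0.19 ± 0.06 in the libraries labelled A498 and by -0.02 ± 0.05 in those labelled 786-O, where its group means lay between 78.5 and 85.6 CPM in all 4 groups.

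**Figure D2:**
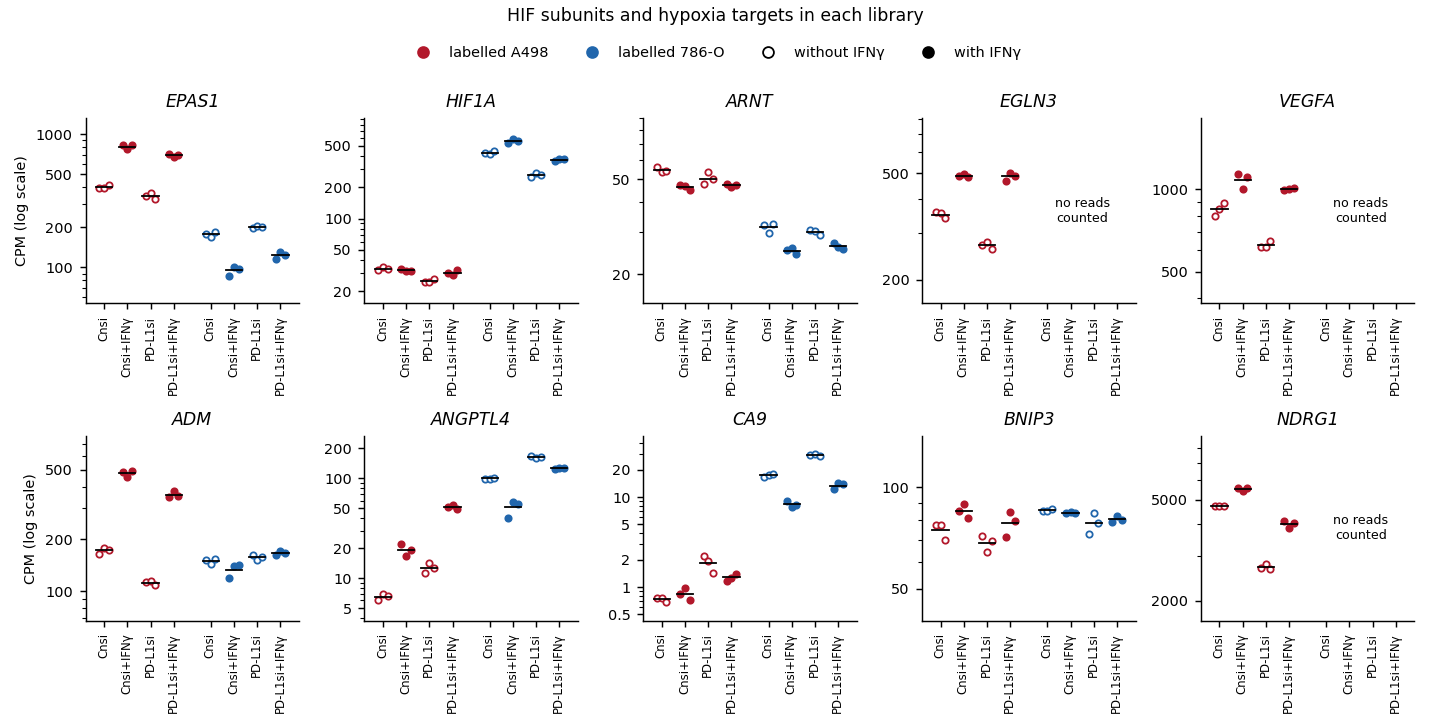
CPM (TMM-scaled, log axis) of the 10 members in each library, with 3 points per group, a bar at the group mean, open points without IFNγ and filled points with it. EPAS1 and ANGPTL4 were higher with IFNγ in the Cnsi libraries labelled A498 and lower in those labelled 786-O; EGLN3, VEGFA and NDRG1 had no reads counted in the libraries labelled 786-O.

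With PD-L1 silenced, the same question (PD-L1si IFNγ against PD-L1si) gave 6 of 10 members higher and 1 lower in the libraries labelled A498, where 17.6 percent of all genes were higher and 15.9 percent lower. Labelled 786-O, 0 of 7 were higher and 2 lower, against 11 percent and 7.45 percent of all genes. *EGLN3*, *VEGFA* and *NDRG1* were now among the genes that rose in the first line. *EGLN3* was at 270, 277 and 261 CPM with PD-L1si and at 469, 503 and 490 CPM with IFNγ added (1.81-fold, log2 0.86 ± 0.04 SE, adjusted p = 5.68e-20). *VEGFA* was at 616, 613 and 649 CPM and then at 994, 1007 and 1012 CPM (1.604-fold, log2 0.68 ± 0.04 SE, adjusted p = 7.46e-16). *NDRG1* was at 2690, 2784 and 2672 CPM and then at 4138, 3867 and 4035 CPM (1.48-fold, log2 0.56 ± 0.04 SE, adjusted p = 7.41e-16).

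The groups of these 3 genes did not overlap. Here too the share of all genes with separate groups was not computed, and 58.5 percent of all genes passed at the adjusted p-value alone. *EPAS1* rose 2.02-fold, *ADM* 3.21-fold and *ANGPTL4* 4.09-fold in the same comparison, from 343, 364 and 324 to 711, 671 and 702 CPM, from 113, 114 and 109 to 347, 377 and 355 CPM, and from 11.3, 14.3 and 12.6 to 51.8, 54.5 and 49.2 CPM. *CA9* was the member that fell, from 2.22, 1.94 and 1.42 to 1.18, 1.27 and 1.405 CPM (log2 -0.54 ± 0.21 SE, adjusted p = 0.0224) between groups that did not overlap but were close. The overlapping *ARHGEF39* was lower too, at 22.9 to 24.9 CPM with PD-L1si and 14.1 to 14.4 CPM with IFNγ added, and its part in the *CA9* counts was not tested. This call was lost when replicate 1 or 2 of PD-L1si or replicate 1 of PD-L1si IFNγ was left out (log2 fold change -0.38, -0.51 and -0.48) and in DESeq2.

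In the libraries labelled 786-O, *EPAS1* fell in PD-L1si cells from 198, 204 and 202 to 116, 130 and 124 CPM with IFNγ (log2 -0.70 ± 0.06 SE, adjusted p = 8.54e-11). *CA9* fell from 28.9, 30.0 and 28.4 to 12.2, 14.3 and 13.8 CPM (log2 -1.12 ± 0.07 SE, adjusted p = 3.19e-12). Both were lower in each library with IFNγ. *HIF1A* was at 250, 275 and 264 CPM and then at 357, 376 and 371 CPM, with a log2 fold change of 0.49 ± 0.05 (SE, adjusted p = 4.30e-09) just under the fold threshold, which passed it without replicate 2 of PD-L1si or 1 of PD-L1si IFNγ (0.51 in both). *ANGPTL4* was at 167, 159 and 164 and then at 125, 126 and 128 CPM, with a log2 fold change of -0.37 ± 0.09 (SE, adjusted p = 0.00676).

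**Figure D3:**
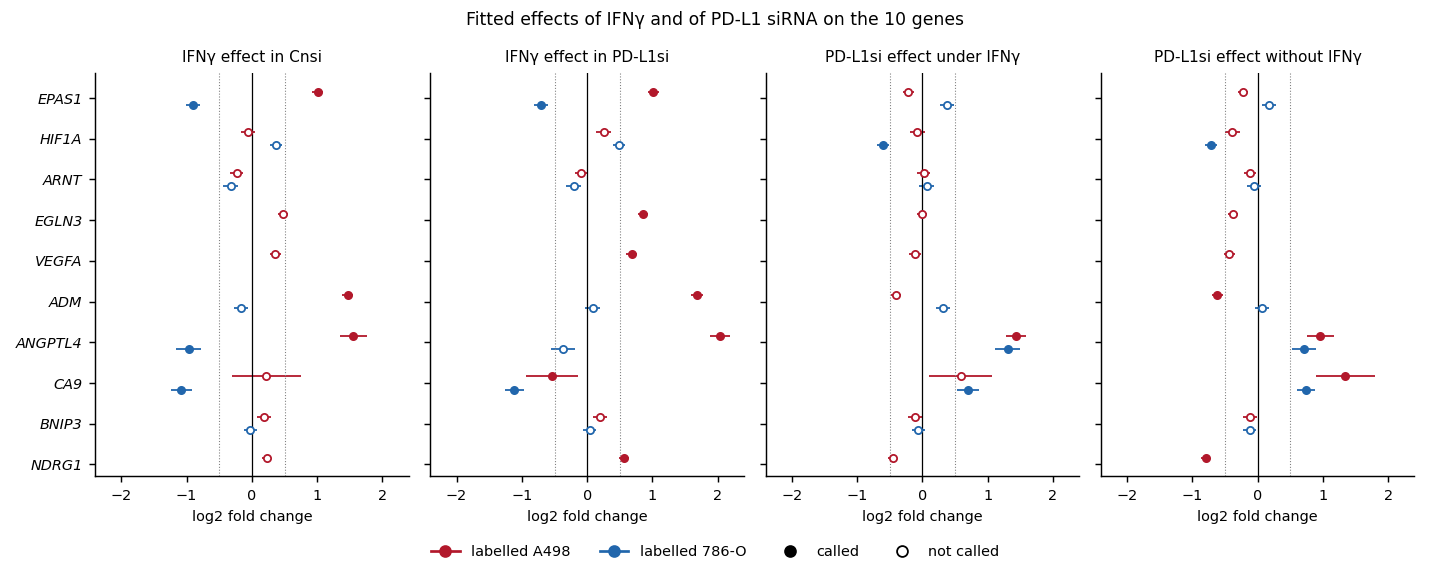
Fitted log2 fold changes of the 10 members with their 95% intervals in the 4 comparisons, in the libraries labelled A498 (red) and 786-O (blue). Filled points are called, open points are not, the dotted lines mark 0.5 in either direction, and EGLN3, VEGFA and NDRG1 have no blue point because they were not measured there. ANGPTL4 lies to the right of the dotted line with PD-L1si in both lines and both IFNγ states.

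With PD-L1si under IFNγ (PD-L1si IFNγ against Cnsi IFNγ), 1 of 10 members was higher and 0 lower in the libraries labelled A498, where 4.36 percent of all genes were higher and 5.75 percent lower. In those labelled 786-O, 2 of 7 were higher and 1 lower, against 1.29 percent and 1.74 percent. These comparisons share their Cnsi IFNγ libraries with the IFNγ comparison in Cnsi cells. *ANGPTL4* rose in both lines. Labelled A498 it went from 16.6 to 21.9 CPM with Cnsi IFNγ to 49.2 to 54.5 CPM with PD-L1si IFNγ, 2.70-fold (log2 1.43 ± 0.08 SE, adjusted p = 3.53e-16). Labelled 786-O it went from 39.9 to 57.6 CPM to 125 to 128 CPM, 2.47-fold (log2 1.30 ± 0.10 SE, adjusted p = 1.99e-06).

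The groups of *ANGPTL4* were separate in both lines, and the lines differed by -0.12 on the log2 scale (95% interval -0.40 to 0.17, adjusted p = 0.683), an interval that includes no difference. *CA9* rose 1.62-fold in the libraries labelled 786-O (log2 0.70 ± 0.08 SE, adjusted p = 1.89e-06). Labelled A498 its log2 fold change of 0.59 ± 0.25 (SE) did not pass (adjusted p = 0.0625), and it passed when protein-coding genes alone were tested. *HIF1A* fell by 0.60 on the log2 scale (± 0.05 SE, adjusted p = 1.61e-09) labelled 786-O, from 537, 578 and 559 to 357, 376 and 371 CPM. Labelled A498 its log2 fold change was -0.08 (95% interval -0.19 to 0.03, adjusted p = 0.314).

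Under the same silencing, *EPAS1* and *ADM* moved in opposite directions in the 2 lines by less than the fold threshold. *EPAS1* had log2 fold changes of -0.22 ± 0.04 (labelled A498) and 0.37 ± 0.06 (labelled 786-O), and *ADM* of -0.41 ± 0.04 and 0.32 ± 0.06 (SE). The differences between the lines were 0.60 (95% interval 0.46 to 0.74, adjusted p = 4.73e-08) for *EPAS1*, 0.73 (0.59 to 0.87, adjusted p = 4.59e-10) for *ADM* and -0.51 (-0.65 to -0.37, adjusted p = 1.44e-06) for *HIF1A*. The difference of *HIF1A* fell below the fold threshold, to between -0.49 and -0.47, without replicate 3 of Cnsi IFNγ or of PD-L1si IFNγ labelled A498, and without replicate 2 of Cnsi IFNγ or 1 of PD-L1si IFNγ labelled 786-O. These 3 of 7 members were called, against 5.6 percent of all genes tested in both lines, and at the adjusted p-value alone they were the same 3, against 16.3 percent. The PD-L1si effect on *CD274* itself differed between the lines by 1.87 on the log2 scale, with the smaller fall labelled 786-O. The line and the strength of silencing therefore cannot be told apart in these differences. *NDRG1* was at -0.46 ± 0.04 labelled A498, and *EGLN3*, *VEGFA*, *ARNT* and *BNIP3* lay between -0.12 and 0.02 there.

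Without IFNγ (PD-L1si against Cnsi), 2 of 10 members were called higher and 2 lower among the libraries labelled A498, against 2.87 percent of all genes higher and 5.6 percent lower. Labelled 786-O, 2 of 7 rose and 1 fell, against 1.19 percent and 1.63 percent. *ANGPTL4* and *CA9* rose in both lines. *ANGPTL4* rose 1.94-fold (log2 0.96 ± 0.11 SE, adjusted p = 6.96e-09) labelled A498 and 1.63-fold (log2 0.71 ± 0.09 SE, adjusted p = 2.41e-04) labelled 786-O. *CA9* rose 2.53-fold (log2 1.34 ± 0.23 SE, adjusted p = 6.65e-06), from 17 to 19 counts per library to 40 to 63 counts, and 1.66-fold (log2 0.74 ± 0.07 SE, adjusted p = 6.47e-08), from 487 to 530 to 834 to 916 counts.

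The neighbouring *ARHGEF39* was at 19.0 to 19.3 CPM with Cnsi and 22.9 to 24.9 CPM with PD-L1si labelled A498, and at 66.9 to 74.7 and 74.7 to 77.2 CPM labelled 786-O. *NDRG1* fell in the libraries labelled A498, from 4699 to 4739 CPM to 2672 to 2784 CPM (log2 -0.80 ± 0.04 SE, adjusted p = 6.23e-19), and *ADM* from 164 to 178 CPM to 109 to 114 CPM (log2 -0.62 ± 0.04 SE, adjusted p = 1.22e-13). *VEGFA* (-0.44 ± 0.04), *HIF1A* (-0.39 ± 0.06) and *EGLN3* (-0.38 ± 0.04) were also lower there by less than the fold threshold. *HIF1A* fell in the libraries labelled 786-O from 420 to 444 CPM to 250 to 275 CPM (log2 -0.72 ± 0.05 SE, adjusted p = 7.00e-11). *ADM* was at 0.07 there (95% interval -0.04 to 0.17, adjusted p = 0.515).

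Whether the response to IFNγ differed with PD-L1si was tested as the interaction, which is the log2 IFNγ effect in PD-L1si cells minus that in Cnsi cells. Labelled A498, 0 of 10 members passed both thresholds, against 2.45 percent of all genes, with 0 by DESeq2 as well. An unadjusted p-value under 0.05 was found for 8 members, and the share of all genes at that level was not computed. At the adjusted p-value alone, 6 members passed, against 9.08 percent of all genes, and all 6 had a positive interaction. *CA9* had the largest value in size of the 10 members, and it was negative and did not pass, at -0.76 (95% interval -1.42 to -0.09, adjusted p = 0.175). The 6 values were 0.48 ± 0.13 for *ANGPTL4*, 0.37 ± 0.06 for *EGLN3*, 0.34 ± 0.05 for *NDRG1*, 0.32 ± 0.06 for *VEGFA*, 0.31 ± 0.08 for *HIF1A* and 0.21 ± 0.06 for *ADM* (log2, SE). The PD-L1si group without IFNγ had the lowest mean CPM for *EGLN3*, *NDRG1*, *VEGFA*, *HIF1A* and *ADM*, and also for *EPAS1* and *BNIP3*, which did not pass. The interaction of *EPAS1* had a 95% interval from -0.11 to 0.12. *ANGPTL4* passed both thresholds when 1 of 4 libraries was left out (replicate 1 of Cnsi, 1 of Cnsi IFNγ, 2 of PD-L1si or 3 of PD-L1si IFNγ), at 0.53, 0.57, 0.54 and 0.51.

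Labelled 786-O, 0 of 7 members passed the interaction test at either threshold, against 0.099 percent of all genes at both thresholds and 0.217 percent at the adjusted p-value alone. DESeq2 called 1 member and 3 had an unadjusted p-value under 0.05, with no share of all genes computed for either. The largest value was that of *ANGPTL4*, at 0.59 (95% interval 0.33 to 0.86, adjusted p = 0.152), and it was the gene that DESeq2 called. It also passed without replicate 2 of Cnsi IFNγ, at 0.69. The interval of *HIF1A* ran from -0.01 to 0.25 and that of *CA9* from -0.25 to 0.18.

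The wider list was examined for the other genes of the pathway. Labelled A498, 63 of its 66 genes were tested, and with IFNγ in Cnsi cells 15 (23.8 percent) rose and 7 (11.1 percent) fell. Over all genes 18.2 percent rose and 18.5 percent fell. The median log2 fold change was 0.10, against -0.03 over all genes tested. Labelled 786-O, 52 were tested, and 1 (1.92 percent) rose while 20 (38.5 percent) fell, against 11.1 percent and 7.39 percent of all genes, with a median of -0.36 against 0.0049. With PD-L1si the counts were 21 and 6 (labelled A498), against 17.6 and 15.9 percent of all genes, and 1 and 21 (labelled 786-O), against 11 and 7.45 percent.

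**Figure D4:**
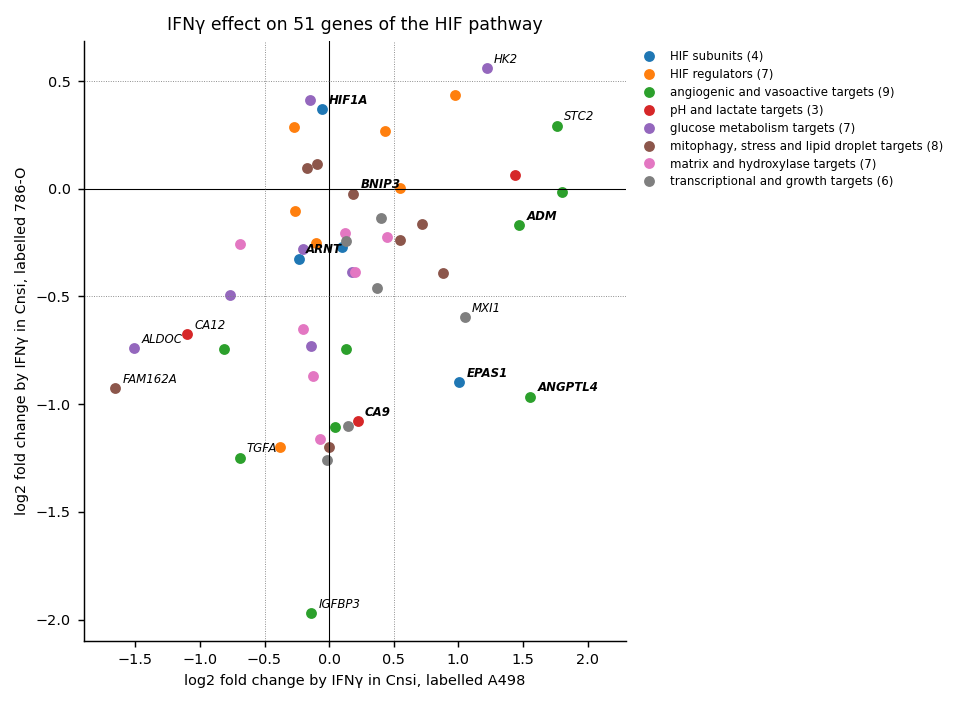
Log2 fold change with IFNγ in Cnsi cells in the libraries labelled A498 (horizontal) and 786-O (vertical) for the 51 genes of the wider list tested in both, coloured by their role, with the number of genes of each role in the legend, members in bold and dotted lines at 0.5 in either direction. EPAS1 and ANGPTL4 lie at the lower right, and HK2 is the only gene past 0.5 in both lines on the upper side.

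By role, the angiogenic and vasoactive targets gave 4 of 11 higher and 2 lower with IFNγ in Cnsi cells labelled A498, and 0 of 9 higher and 6 lower labelled 786-O. The shares of all genes, which apply to each role, were 18.2 percent higher and 18.5 percent lower labelled A498, and 11.1 and 7.39 percent labelled 786-O. Among them *STC2*, a secreted glycoprotein, rose by 1.76 ± 0.04 on the log2 scale labelled A498, with a value of 0.29 ± 0.06 labelled 786-O. *IGFBP3*, which binds insulin-like growth factors, fell by 1.97 ± 0.05 labelled 786-O, against -0.14 ± 0.04 labelled A498. *TGFA*, a ligand of the EGF receptor, fell in both lines, by 0.69 ± 0.04 and 1.25 ± 0.06. *EPO*, which encodes erythropoietin, passed the test labelled A498 with 11 counts in the 3 Cnsi libraries and 2 in the 3 with IFNγ, too few for a fold.

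The glucose metabolism targets gave 1 of 9 higher and 2 lower labelled A498, and 1 of 7 higher and 2 lower labelled 786-O, against 18.2 and 18.5 percent, and 11.1 and 7.39 percent, of all genes. *HK2*, a hexokinase that starts glycolysis, rose in both lines, by 1.22 ± 0.05 and 0.56 ± 0.08, and *ALDOC*, an aldolase, fell in both, by 1.51 ± 0.15 and 0.74 ± 0.06 (log2, SE). Of the pH and lactate targets, *CA12*, a carbonic anhydrase like *CA9*, fell by 1.10 ± 0.04 and 0.67 ± 0.05. *FAM162A*, a mitochondrial HIF target, fell by 1.66 ± 0.09 and 0.93 ± 0.14. *MXI1*, an antagonist of MYC, was called in opposite directions, at 1.05 ± 0.05 and -0.60 ± 0.07. The matrix and hydroxylase targets gave 0 of 8 higher and 1 lower labelled A498, and 0 of 7 higher and 3 lower labelled 786-O.

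The regulators gave 3 of 12 higher and 0 lower labelled A498 and 0 of 7 higher and 1 lower labelled 786-O, where the shares of all genes were 18.2 and 18.5 percent, and 11.1 and 7.39 percent. *VHL* itself was at a mean of 37.5 CPM in Cnsi cells labelled A498, with a log2 fold change of -0.24 ± 0.06 (SE) with IFNγ, and it was not measured labelled 786-O. *HIF3A*, another α subunit, was tested labelled 786-O alone, where it had 2 to 29 counts per library. It fell with IFNγ in PD-L1si cells, from 78 counts over 3 libraries to 24. Of the mitophagy, stress and lipid droplet targets with IFNγ in PD-L1si cells, *PLIN2*, a lipid droplet coat protein, rose by 1.45 ± 0.04 labelled A498 (-0.07 ± 0.05 labelled 786-O), and *HILPDA* fell by 1.30 ± 0.15 labelled 786-O (0.17 ± 0.06 labelled A498). In that comparison genes such as *EDN1*, *IGFBP3*, *LOX* and *MXI1* were called higher labelled A498 and lower labelled 786-O.

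With PD-L1si under IFNγ, the wider list gave 1 higher and 4 lower of 63 (labelled A498) and 3 higher and 2 lower of 52 (labelled 786-O). Of all genes 4.36 percent were higher and 5.75 percent lower labelled A498, the latter close to the 6.35 percent of the list, and 1.29 and 1.74 percent labelled 786-O. The genes lower labelled A498 included *PLIN2* (-0.62 ± 0.04) and *STC2* (-0.56 ± 0.04). Labelled 786-O, the clock repressor *BHLHE41* rose (0.74 ± 0.14) and the enolase *ENO2* fell (-0.67 ± 0.11). Without IFNγ, 2 genes were higher and 13 (20.6 percent) lower labelled A498, with a median log2 fold change of -0.21 against -0.0031 over all genes, and 4 higher and 1 lower labelled 786-O. The shares of all genes were 2.87 and 5.6 percent, and 1.19 and 1.63 percent. The genes that fell labelled A498 included *PLIN2* (-1.19 ± 0.04), *IGFBP3* (-1.08 ± 0.04), *STC2* (-1.08 ± 0.04), and the matrix cross-linking enzymes *LOX* (-1.08 ± 0.07) and *LOXL2* (-0.72 ± 0.04). In the interaction, 7 of 63 (11.1 percent) passed both thresholds labelled A498, all with a positive value, against 2.45 percent of all genes, of which 378 were positive and 135 negative. Labelled 786-O 0 of 52 did so in edgeR, against 0.099 percent of all genes. DESeq2 called 1 gene of the list and 16 had an unadjusted p-value under 0.05, with no share of all genes computed for either.

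Genes whose profile over the 12 libraries of a line was most like that of a subunit were listed by Pearson's r of log2(CPM + 1), over 14964 genes (labelled A498) and 14171 genes (labelled 786-O) with a mean of at least 1 CPM. The libraries of a line share 4 groups, so that any gene with a like response to IFNγ comes out high. For *EPAS1* these were *ZFAND3* (r = 0.999), *PML* (0.998) and *OASL* (0.997) labelled A498, and *ZNF436* (0.995), *PALS2* (0.993) and *RIC1* (0.992) labelled 786-O. For *HIF1A* they were *DYNLT1* (0.949), *LUCAT1* (0.945) and *NEDD9* (0.940), and labelled 786-O *SRPRB* (0.995), *CEP97* (0.993) and *DLD* (0.992). For *ARNT* the values ran from 0.940 to 0.944, led by *CFAP20DC*, and labelled 786-O from 0.969 to 0.971, led by *IPMK*. These lists hold only the most alike genes of each line, so whether the 2 lines share genes of like profile was not tested.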

How the data were processed

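Polyadenylated RNA of 24 cell line samples was sequenced with a stranded kit. The authors deposited raw read counts per gene, 1 table of 39321 Ensembl genes, made per the labels with bcl2fastq 2.19.0, Trimmomatic 0.36.6, HISAT2 2.1.0 and featureCounts 1.6.3 on GRCh38. Counting was stated to use strand and an earlier GENCODE release. Names and positions are from GENCODE 44, which named 39148 of the genes. Promoters are from RefSeq.

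Each line was fitted separately with edgeR 4.0.16 in R 4.3.3 (TMM, quasi-likelihood test, 12 libraries, 1 mean per group) over genes with at least 10 counts summed in at least 1 group (20916 labelled A498 and 21209 labelled 786-O). Differences between lines were fitted on all 24 libraries (17999 genes). All p-values were adjusted by Benjamini-Hochberg over all genes tested. The fit was tested on simulated data for the IFNγ effect in Cnsi cells of each line alone, with changes set in well-counted genes. Changes in low-count genes, the other comparisons, the interactions and the differences between lines were not simulated.

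All 10 members are given. Of the wider list, up to 5 genes called alike in both lines and up to 5 called in 1 line with the largest changes are named per comparison, other genes were named after their values were seen, and some genes that the rule picks are not reported here, although the counts include them. The members and lists were chosen with earlier results of these data known. Alternatives were DESeq2 1.42.0, RLE factors, other filters, other fold thresholds, a replicate block and leaving out each library.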

Additional observations from a re-analysis of the deposited data

Results flagged for a closer look

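The values below differed between groups in a test of the difference itself (edgeR quasi-likelihood test, adjusted p-value under 0.05 over all genes tested, with no fold threshold). Groups of 3 were too small to look for outlying samples.

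The IFNγ effect (log2) with PD-L1si minus that with Cnsi, labelled A498, was different from 0 for *HIF1A* (0.31), *EGLN3* (0.37), *VEGFA* (0.32), *ADM* (0.21), *ANGPTL4* (0.48), *NDRG1* (0.34), *TGFA* (0.32), *CA12* (0.42), *IGFBP3* (1.16), *STC2* (0.52), *MXI1* (0.41), *PLIN2* (0.57), *EDN1* (0.58), *LOX* (0.64), *ENO2* (0.21) and *LOXL2* (0.33). The same difference labelled 786-O was found for *PLIN2* (0.32).

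The IFNγ effect in Cnsi cells labelled 786-O minus that labelled A498 was different from 0 for *HIF1A* (0.42), *EPAS1* (-1.91), *ADM* (-1.64), *ANGPTL4* (-2.53), *CA9* (-1.31), *BNIP3* (-0.22), *FAM162A* (0.73), *ALDOC* (0.76), *TGFA* (-0.56), *HK2* (-0.66), *CA12* (0.42), *IGFBP3* (-1.84), *STC2* (-1.48), *MXI1* (-1.65), *PLIN2* (-1.28), *HILPDA* (-1.20), *EDN1* (-1.16), *LOX* (-1.10), *BHLHE41* (-1.24), *ENO2* (-0.57) and *LOXL2* (-0.45).

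The PD-L1si effect under IFNγ, labelled 786-O minus labelled A498, was different from 0 for *HIF1A* (-0.51), *EPAS1* (0.60), *ADM* (0.73), *TGFA* (-0.22), *IGFBP3* (-0.38), *STC2* (0.30), *PLIN2* (0.66), *BHLHE41* (0.59) and *LOXL2* (0.47). The line, the instrument and the difference in gene versions cannot be told apart in the last 2 sets. In the last set the strength of silencing cannot be told apart from them either, since the effect on *CD274* differed by 1.87.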

How the results depend on the processing

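The comparisons are given in the order IFNγ in Cnsi, IFNγ in PD-L1si, PD-L1si under IFNγ and PD-L1si without IFNγ. Without a fold threshold the members called labelled A498 numbered 8 in the first, 5 in the third and 8 in the fourth, with 6 in the interaction, and those labelled 786-O numbered 6, 5 and 5 in the first 3. The wider list then gave 47, 51, 32 and 39 genes (labelled A498) and 43, 37, 18 and 22 (labelled 786-O). Of all genes, 61.3, 58.5, 34.1 and 30.8 percent passed without a fold threshold labelled A498, with 9.08 percent in the interaction, and 38.8, 38.5, 14.0 and 12.8 percent labelled 786-O. At a log2 fold change over 1, 3 members were called in the second and 1 in the fourth comparison labelled A498, 1, 1, 1 and 0 labelled 786-O, and 0 in the difference between lines in the PD-L1si effect, with 12, 12, 1 and 6 genes of the wider list (labelled A498) and 9, 9, 1 and 0 (labelled 786-O). The share of all genes at this stricter threshold was not computed, so these counts have no base rate. With protein-coding genes alone, 2 members were called with PD-L1si under IFNγ labelled A498, and with DESeq2 or no filter 1 member (*ANGPTL4*) was called in the interaction labelled 786-O. The cause of these differences was not tested beyond the thresholds themselves.

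The near-zero interaction labelled A498 changed sign, without being called, for *EPAS1* to -0.012 (RLE), -0.012 (DESeq2), -0.0085 (no filter), -0.0028 (filterByExpr) and -0.013 (protein-coding), and for *BNIP3* to -0.013, -0.011, -0.010, -0.0046 and -0.015. Leaving out 1 library gave 0 to 1 members called in the interaction of either line. It changed the sign of uncalled values, with ranges of -0.055 to 0.032 for *EPAS1* and -0.057 to 0.064 for *BNIP3* (interaction, labelled A498), -0.00063 to 0.036 for *ARNT* and -0.029 to 0.021 for *EGLN3* (PD-L1si under IFNγ, labelled A498), -0.054 to 0.089 for *BNIP3* (IFNγ in PD-L1si, labelled 786-O), -0.089 to 0.030 for *CA9* and -0.0074 to 0.11 for *BNIP3* (interaction, labelled 786-O), and -0.0035 to 0.12 for *BNIP3* (difference between lines in the PD-L1si effect).

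Across groups, 3 of 18 same-numbered pairs of libraries labelled A498 and 5 of 18 labelled 786-O correlated above 0.1. Of differently numbered pairs, 4 of 36 and 10 of 36 did so. The mean r of same-numbered and other pairs was 0.050 and -0.025 labelled A498, and 0.028 and -0.014 labelled 786-O. These values do not decide whether the numbers mark paired libraries. With a replicate block, the members called labelled A498 numbered 3 with IFNγ in Cnsi, as without it, and none of the 12 counts of members moved. Library sizes from total counts alone moved 37 of 68 group means of CPM by more than 1 SD. *CA9* labelled A498 was limited by its counts, and *VEGFA*, *EGLN3* and *NDRG1* could not be assessed labelled 786-O.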
